A study of Mus musculus with 4 samples.

Results

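The 10 genes described here encode the core proteins of the microRNA pathway: the Argonautes Ago1, Ago2, Ago3 and Ago4, the TNRC6 proteins Tnrc6a, Tnrc6b and Tnrc6c, the nuclease Dicer1, and the Microprocessor subunits Drosha and Dgcr8. They were picked by symbol from the 50559 genes of the count table, by a rule that uses no measured value but was written with earlier results of these data known, and each symbol matched 1 row. The samples were E14 mouse embryonic stem cells (ESCs). The ESCs in the study's cell culture section carry a tdTomato reporter gene under the promoter of the endogenous retrovirus MERVL. In the siCnot1 group an siRNA directed at Cnot1 had been delivered, and in the siNT group a non-targeting one, with 2 RNA-seq libraries per group and 4 in all. Both groups were grown on gelatin in medium with serum replacement and leukemia inhibitory factor, both carried an siRNA, and both were collected 48 h after transfection. The study's methods call the libraries of a group independent biological replicates, describe the RNA as poly(A)+, and list a pair of siRNAs against Cnot1 without naming the one used here. A single ESC line was used.

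Primary microRNA transcripts are cut in the nucleus by the Microprocessor, in which DROSHA is the nuclease and DGCR8 the RNA-binding partner. The resulting hairpin is exported and cut again by DICER1, and 1 strand of the product is loaded into an Argonaute protein, which pairs with target mRNAs mainly through the seed of the microRNA. Argonaute binds a TNRC6 protein (also called GW182), and TNRC6 binds CNOT1, the scaffold of the CCR4-NOT deadenylase complex, which shortens the poly(A) tail of the target. The siRNA used here therefore lowered the mRNA of the protein that TNRC6 recruits. An siRNA also acts through Argonaute proteins, in siNT as in siCnot1 cells. In mouse ESCs the miR-290 and miR-302 clusters supply many of the microRNAs, while LIN28 proteins hold back the maturation of let-7.

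The mature sequences below are shown because their seeds define the target sites searched in the members. They are RefSeq sequences on GRCm38.p6, written 5′ to 3′ with the seed (bases 2 to 8) in capitals. Poly(A)+ libraries do not measure mature microRNAs, so none of these has a value here. The first pair carries the seed shared by the miR-290 and miR-302 clusters, the next pair that of miR-17, and the last that of let-7.
mmu-miR-294-3p: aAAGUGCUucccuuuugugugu
mmu-miR-302b-3p: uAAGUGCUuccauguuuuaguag
mmu-miR-17-5p: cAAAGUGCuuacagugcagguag
mmu-miR-93-5p: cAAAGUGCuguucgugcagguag
mmu-let-7a-5p: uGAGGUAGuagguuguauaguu

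A second set is shown because it lies inside a member. Exons of Dgcr8 hold 2 microRNA hairpins on its own strand, Mir1306 (79 bases shared with Dgcr8 exons) and Mir3618, which the table lists as Gm24572 (88 bases). The Microprocessor is known to cut the Dgcr8 mRNA at these hairpins, which lowers its own RNA-binding subunit. Both hairpins were listed at 0 counts in all 4 libraries. They share their bases with Dgcr8 exons, and how shared reads were counted is not stated. This 0 is therefore not a measure of the hairpins. Their mature products lie on the minus strand of GRCm38.p6 at chr16:18284248-18284268 for miR-1306-3p, chr16:18284288-18284310 for miR-1306-5p, chr16:18284562-18284583 for miR-3618-3p and chr16:18284602-18284623 for miR-3618-5p, with seeds in capitals as above.
mmu-miR-1306-5p: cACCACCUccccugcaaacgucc
mmu-miR-1306-3p: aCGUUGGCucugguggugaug
mmu-miR-3618-5p: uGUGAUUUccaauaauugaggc
mmu-miR-3618-3p: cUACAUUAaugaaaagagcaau

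The libraries held 32308326 and 32557440 counts on genes in siNT and 32135824 and 32448237 in siCnot1, and 3 counts corresponded to 0.0921 to 0.0934 CPM (counts scaled by library size). Of the genes listed, 18144 passed the filter on low counts and were tested with edgeR's quasi-likelihood test after TMM scaling, with Benjamini-Hochberg adjustment over these genes. A gene is called higher or lower at an adjusted p under 0.05, and normalized CPM below means CPM after TMM scaling. All 10 members passed the filter. Cnot1, the siRNA's target, measured 913 and 986 normalized CPM in siNT and 185 and 192 in siCnot1, and 19.8% of the control level remained (log2 fold change -2.33, standard error 0.0587, adjusted p = 2.37e-18). The ESC markers were present in every library, at a summed 11239 to 11918 TPM (a scale like CPM that also corrects for exon length) in siNT and 10150 to 10487 TPM in siCnot1, and 8 of the 10 were called lower. Markers of the 2-cell-like state, a rare state of cultured ESCs, summed to 69.7 and 70.0 TPM in siNT and 199.6 and 205 TPM in siCnot1, and 5 of 6 were called higher. Primitive endoderm markers summed to 6.13 to 7.45 TPM in siNT and 11.1 TPM in both siCnot1 libraries, with 2 of 6 called higher. Trophectoderm markers summed to 76.2 to 78.1 TPM in siNT and 56.0 to 63.7 TPM in siCnot1, with 3 of the 5 tested called lower. Formative and primed markers summed to 43.6 to 47.7 TPM in siNT and 39.9 to 40.9 TPM in siCnot1, with 2 of the 3 tested called lower, and fibroblast (feeder) markers to 11.1 to 15.4 TPM and 15.5 to 16.5 TPM, with 1 of the 3 tested called higher. No marker was at 0 in every library, but Elf5, Fgf5, Postn and Lum were below the filter on low counts. Thy1 made up most of the fibroblast sum, at 10.4 and 14.4 TPM in siNT and 14.5 and 13.6 TPM in siCnot1. These sums were not rescaled by TMM, and TPM are offset upward in siCnot1, as given below. Over all genes tested, 15% were called higher and 14.7% lower. The part of these markers in the results below was not tested, and in bulk RNA fewer cells of a type and less RNA per cell cannot be told apart.

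After knockdown of Cnot1 the estimated fold changes of the pathway's mRNAs lay within 2-fold of control, with members moving both ways. For Ago4, the scarcest member, the confidence interval reached a log2 fold change of 1.43, so a change past 2-fold was not excluded. Normalized CPM are relative to the other genes of a library, so a shift shared by all mRNAs would not show. Ago2, the Argonaute able to cleave its target, rose 1.40-fold, and Tnrc6a rose 1.14-fold. Dicer1 fell to 84.9% and Dgcr8 to 82.9% of the siNT level. In all, 2 members were called higher and 2 lower, and 6 did not pass the test. Over all genes tested, 15% were called higher and 14.7% lower, so 29.7% were called in either direction and the members' count lay near that share. Over all genes this was 2719 higher and 2668 lower, and when counts were scaled by library totals alone the calls split into 3999 higher and 1563 lower. None of the 10 reached the threshold used in the study, a 2-fold change with an unadjusted p of at most 0.05, which 6.18% of all genes reached upward, 1.8% downward and 7.98% in either direction. Both siCnot1 libraries lay above both siNT libraries for 4 members and below them for 4, while 2 overlapped. Of all genes tested, 32.7% separated upward, 31.2% downward and 63.9% either way. The members' median log2 fold change was -0.013, beside 0.0084 over all genes tested.

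**Figure D1:**
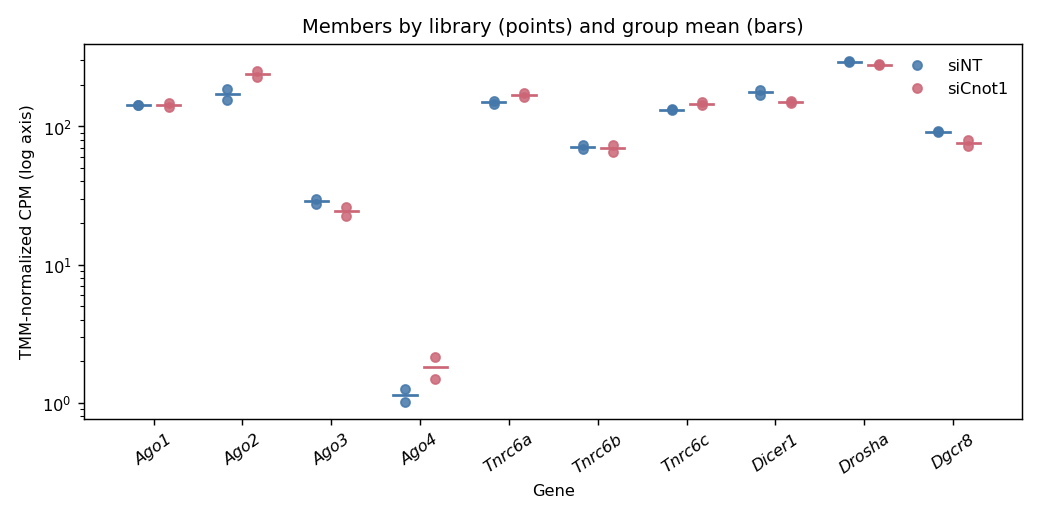
TMM-normalized CPM (log axis) of each of the 10 genes in the 2 siNT and the 2 siCnot1 libraries, with points for libraries and short bars for group means (n = 2). Ago2 sits higher and Dicer1 and Dgcr8 lower in both siCnot1 libraries, while Ago4 lies near 1 to 2 normalized CPM throughout.

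The Argonautes bind the microRNA and the target. Ago2 (GRCm39 chr15:72973474-73056796, minus strand) measured 156 and 186 normalized CPM in siNT and 227 and 252 in siCnot1. Both siCnot1 libraries were above both siNT libraries, although the siNT libraries differed from each other more than those of any other abundant member. The group means were 171 ± 21.0 and 239.5 ± 17.1 (SD, n = 2), a log2 fold change of 0.49 (standard error 0.0707, 95% interval 0.34 to 0.63, adjusted p = 1.35e-05, edgeR). The change was the largest in absolute size among the 4 called members, and the call was lost in 1 of 13 alternative fits, without siNT replicate 1 (0.36, adjusted p = 0.0586).

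Ago1 (chr4:126328805-126362500, minus strand), which binds microRNAs but is a poor slicer, measured 142 and 143 normalized CPM in siNT and 138 and 147 in siCnot1. The siCnot1 libraries enclosed the siNT libraries. Its log2 fold change was 0.0019 with a 95% interval from -0.12 to 0.13 (adjusted p = 0.988, edgeR), so that the interval excluded a change as large as that of Ago2. Ago3 (chr4:126220797-126323360, minus strand) measured 29.8 and 27.6 normalized CPM in siNT and 26.3 and 22.4 in siCnot1. Both siCnot1 libraries were lower, by a log2 fold change of -0.24 (95% interval -0.45 to -0.018), which did not pass the test (adjusted p = 0.0974, edgeR). With a correction for the trend of fold change with gene length it did (-0.36, adjusted p = 0.00597).

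Ago4 (chr4:126383280-126427379, minus strand) was the scarcest member, with 39 and 32 counts in siNT and 72 and 50 in siCnot1. This gave 1.25 and 1.02 normalized CPM in siNT and 2.15 and 1.49 in siCnot1, with no overlap between the groups. Its log2 fold change of 0.68 was the largest of the 10, and its 95% interval from -0.074 to 1.43 was the widest (adjusted p = 0.173, edgeR). A change of this size was not distinguishable from no change at this depth. Ago1, Ago3 and Ago4 are neighbours on chromosome 4, and 1 of the 3 had overlapping libraries, 1 had lower and 1 had higher siCnot1 libraries.

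**Figure D2:**
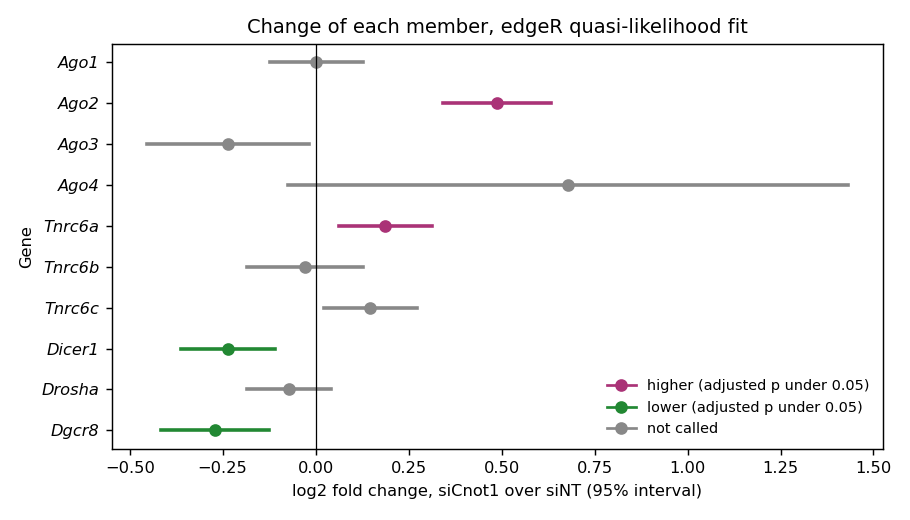
Log2 fold change of siCnot1 over siNT for each gene (point) with its 95% interval (line) from the edgeR fit, n = 2 libraries per group. Ago2 and Tnrc6a lie above 0, Dicer1 and Dgcr8 below 0, and the interval of Ago4, from -0.074 to 1.43, is the widest.

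The TNRC6 proteins are the scaffolds that carry CCR4-NOT to an Argonaute-bound mRNA. Tnrc6a (chr7:122630324-122794519, plus strand) measured 146 and 153 normalized CPM in siNT and 164.5 and 175 in siCnot1. Both siCnot1 libraries were above both siNT libraries. The log2 fold change was 0.19 (standard error 0.0604, 95% interval 0.062 to 0.31, adjusted p = 0.0213, edgeR). This call was lost in 6 of 13 alternatives, among them the length correction (0.090, adjusted p = 0.278) and the removal of any 1 of the 4 libraries (0.13 to 0.23).

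Tnrc6c (chr11:117544529-117654265, plus strand) measured 131 and 133 normalized CPM in siNT and 150.0 and 143 in siCnot1. The groups did not overlap, and its log2 fold change of 0.15 (95% interval 0.022 to 0.27) was close to that of Tnrc6a, but it did not pass the test (adjusted p = 0.0699, edgeR). It passed under upper-quartile scaling (adjusted p = 0.0395), scaling by library totals (adjusted p = 0.0022) and a filter at 1 CPM (adjusted p = 0.0369). Tnrc6b (chr15:80595514-80825287, plus strand) measured 73.4 and 68.1 normalized CPM in siNT and 73.2 and 65.7 in siCnot1. Its libraries overlapped, and the log2 fold change of -0.028 had a 95% interval from -0.18 to 0.13 (adjusted p = 0.828, edgeR). The difference between Tnrc6a and Tnrc6b was not tested.

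Among the processing enzymes, Dicer1 and Dgcr8 were called lower and Drosha was not called. Dicer1 (chr12:104653999-104718227, minus strand), the nuclease that cuts the exported hairpin, measured 169 and 184 normalized CPM in siNT and 148 and 152 in siCnot1. Both siCnot1 libraries were lower, by a log2 fold change of -0.24 (standard error 0.0609, 95% interval -0.36 to -0.11, adjusted p = 0.00476, edgeR). Dgcr8 (chr16:18071812-18107115, minus strand), the RNA-binding subunit of the Microprocessor, measured 90.9 and 92.7 normalized CPM in siNT and 72.0 and 80.3 in siCnot1. Again both siCnot1 libraries were lower, by a log2 fold change of -0.27 (standard error 0.0703, 95% interval -0.42 to -0.12, adjusted p = 0.00514, edgeR).

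Drosha (chr15:12824893-12935377, plus strand), the nuclease of the Microprocessor, measured 291 and 297 normalized CPM in siNT and 282 and 278 in siCnot1. The siCnot1 libraries were lower without overlap, but the log2 fold change was only -0.072 (95% interval -0.19 to 0.042, adjusted p = 0.359, edgeR), and it turned to 0.035 when library totals replaced TMM. Each of the Dicer1 and Dgcr8 calls was lost in 5 of 13 alternatives. Scaling by library totals gave -0.13 (adjusted p = 0.105) for Dicer1 and -0.16 (adjusted p = 0.0781) for Dgcr8. Leaving out siNT replicate 2, siCnot1 replicate 1 or siCnot1 replicate 2 ended the call of Dicer1 (adjusted p = 0.123, 0.103 and 0.0636), and leaving out siNT replicate 1, siNT replicate 2 or siCnot1 replicate 1 that of Dgcr8 (adjusted p = 0.11, 0.122 and 0.166).

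Part of the Dgcr8 exons, 825 bases or 9.38% of their length, overlaps exons of Trmt2a, a tRNA methyltransferase gene on the other strand. Trmt2a had 1888 and 1802 counts in siNT and 1746 and 1841 in siCnot1, a log2 fold change of -0.14 (adjusted p = 0.192, edgeR). The libraries kept strand (dUTP method), but whether the counting used strand is not stated, so reads of Dgcr8 and Trmt2a in the shared bases may not have been told apart. Ago2 shares 196 bases with the antisense gene Gm31725, which had 10 to 34 counts per library beside 4852 to 8418 for Ago2. Tnrc6b holds the hairpin Mir5113 in its exons, at 0 counts in every library, which is likewise not a measure of the hairpin.

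Levels of the members relative to each other were compared in TPM, since their exon lengths in the table run from 4713 bases (Drosha) to 17528 bases (Tnrc6b). TPM were not rescaled by TMM, and they are also divided by exon length. Differences between groups in TPM are offset upward in siCnot1 from those in normalized CPM. The part of each step in this offset was not tested. Ago1, at a log2 fold change of 0.0019 in normalized CPM, had 46.7 TPM in siNT and 52.2 TPM in siCnot1. In siNT, Drosha was the most abundant member at 153 ± 4.69 TPM (SD, n = 2), 2.93 times the next. Ago2 followed at 52.0 ± 7.13 TPM, Ago1 at 46.7 ± 0.822, Dicer1 at 39.1 ± 2.90, Tnrc6c at 33.3 ± 0.763, Tnrc6a at 32.7 ± 1.46 and Dgcr8 at 25.5 ± 0.721. Tnrc6b lay at 9.87 ± 0.382 TPM, Ago3 at 4.13 ± 0.159 and Ago4 at 0.289 ± 0.0377, which was 14.3 times below Ago3. In this order the libraries of Ago2 and Ago1 overlapped, as did those of Tnrc6c and Tnrc6a, while every other pair of neighbours was separate in siNT.

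In siCnot1, Drosha remained first at 162 ± 3.62 TPM, Ago2 followed at 81.4 ± 4.75 and Ago1 at 52.2 ± 1.83, now without overlap between Ago2 and Ago1. Dicer1 stood at 37.1 ± 0.174 TPM, below Tnrc6a at 41.5 ± 1.36 and Tnrc6c at 41.3 ± 1.99, which overlapped each other. In siNT it had stood above both. The last 4 places, from Dgcr8 at 23.6 ± 1.51 TPM through Tnrc6b at 10.8 ± 0.962 and Ago3 at 3.93 ± 0.490 to Ago4 at 0.519 ± 0.138, were held by the same genes in the same order in both groups. These orders depend on the correction for length: by CPM, Dicer1 took place 2 in siNT, ahead of Ago2 at 3, Tnrc6a at 4, Ago1 at 5 and Tnrc6c at 6, and in siCnot1 Dicer1 stood at place 4, above Tnrc6c at 5 and Ago1 at 6. Drosha was first and Dgcr8, Tnrc6b, Ago3 and Ago4 last by either measure.

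**Figure D3:**
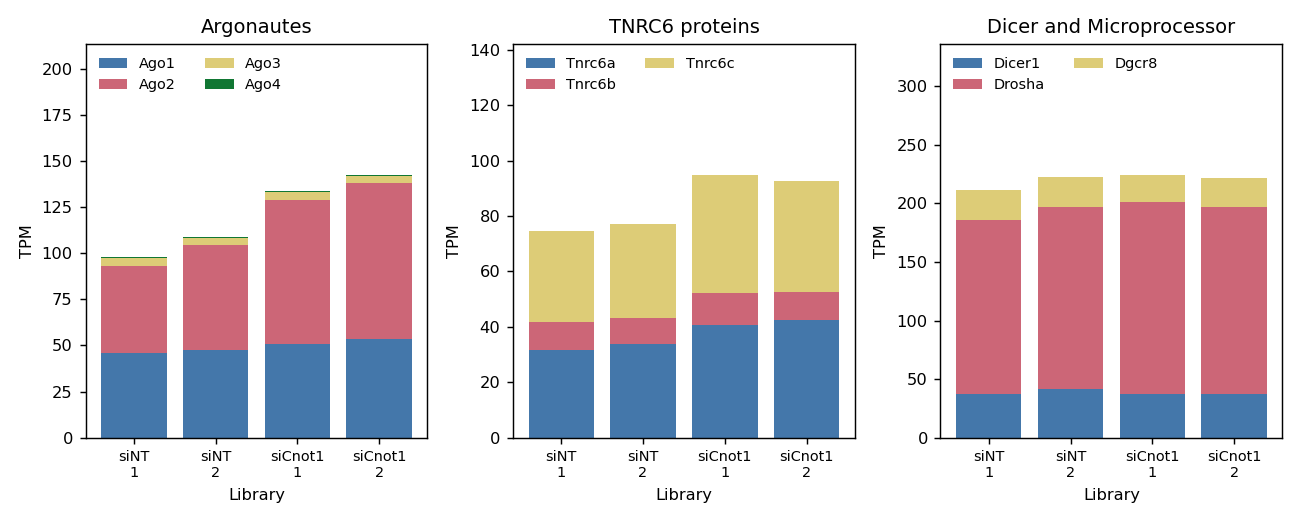
TPM of the Argonautes (left), the TNRC6 proteins (middle) and Dicer1 with the Microprocessor subunits (right), stacked by gene for each of the 4 libraries, with axes that start at 0 and differ between panels. The Ago2 segment takes 48.1% and 52.5% of the Argonaute column in siNT and 58.3% and 59.6% in siCnot1, while the columns of the right panel stay between 211 and 224 TPM. These TPM were not rescaled by TMM and are offset upward in siCnot1, and in normalized CPM Dicer1 and Dgcr8 were called lower.

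The makeup of the Argonaute mRNA pool differed between the groups in these libraries, as a description without a test. Ago2 supplied 48.1% and 52.5% of summed Argonaute TPM in the siNT libraries and 58.3% and 59.6% in the siCnot1 libraries. Ago1 supplied 47.2% and 43.5% in siNT and 38.0% and 37.6% in siCnot1. For Ago2 over Ago1, a ratio that no scaling between libraries alters, the siNT libraries gave 1.02 and 1.21 and the siCnot1 libraries 1.53 and 1.58. The groups did not overlap in these measures, but with 2 libraries against 2 an exact permutation test cannot give a p below 0.333, so they are given as values. Ago3 supplied 3.70% to 4.35% of the pool in siNT and 2.52% to 3.19% in siCnot1, and Ago4 supplied under 1% in every library. By counts in place of TPM the share of Ago3, the longest Argonaute transcript, was 7.74% to 9.05% in siNT and 5.31% to 6.69% in siCnot1.

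Within the TNRC6 pool, Tnrc6a supplied 42.4% and 43.7% of it in siNT and 42.8% and 45.9% in siCnot1, and Tnrc6c 44.0% and 43.9% in siNT and 45.0% and 43.1% in siCnot1, with overlapping groups in both cases. Tnrc6b supplied 13.6% and 12.4% in siNT and 12.1% and 11.0% in siCnot1, lower without overlap (20.9% and 19.3% against 18.9% and 17.1% of counts). Summed TNRC6 over summed Argonaute TPM gave 0.763 and 0.710 for siNT against 0.707 and 0.650 for siCnot1, and the groups nearly met.

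Drosha exceeded Dgcr8 by 5.96 and 5.98 times in TPM in siNT and by 7.30 and 6.46 times in siCnot1. Dicer1 over summed Argonaute TPM was 0.379 in both siNT libraries, against 0.276 and 0.261 in siCnot1. Relative to the mRNA of the scaffold they recruit, TNRC6 transcripts summed to 0.325 and 0.305 times the TPM of Cnot1 in siNT and to 1.79 and 1.71 times in siCnot1. Summed TNRC6 TPM itself was 75.9 ± 1.84 in siNT and 93.6 ± 1.59 in siCnot1 (SD, n = 2), and Cnot1 TPM was 241 ± 16.6 and 53.5 ± 0.768. Between the groups, these TPM carry the upward offset in siCnot1 given above. In normalized CPM, Tnrc6a was called higher, and Tnrc6b and Tnrc6c were not called.

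The members have long transcripts, and in these libraries fold changes moved with length. All 10 exceeded the median exon length of tested genes, 3361 bases, and 9 were in the longest 20% by decile. The median log2 fold change ran from -0.14 in the shortest decile to 0.11 in the longest, and the share of genes called higher from 4.02% to 23.5%. With this trend taken out, Ago2 kept its call and Tnrc6a lost it, Dicer1 and Dgcr8 kept theirs and Ago3 gained one as lower. The part of transcript length in these changes was not tested otherwise.

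**Figure D4:**
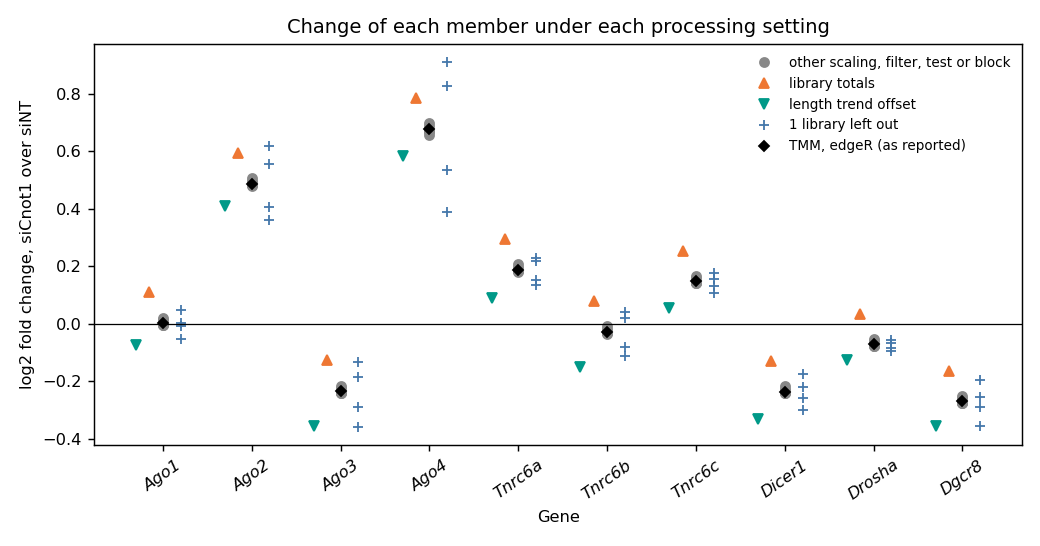
Log2 fold change of each gene as reported (diamonds) and under other scalings, filters, tests and the replicate block (grey), library totals (orange), the length trend offset (green) and with 1 library left out (crosses). Ago2 and Ago4 lie above 0 and Ago3, Dicer1 and Dgcr8 below 0 in every fit, while Ago1, Tnrc6b and Drosha fall on both sides of 0.

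Genes that act around the members were then read in 10 lists. Each list's count stands beside the shares over all genes tested, 15% called higher and 14.7% lower. Of 10 tested genes whose proteins assist the Microprocessor, edgeR called 7 lower and 0 higher, and the median log2 fold change was -0.19. Hnrnpa1, which binds the miR-18a precursor, measured 2501 and 2305 normalized CPM in siNT and 1892 and 1949 in siCnot1. Ncbp1, a subunit of the nuclear cap-binding complex, fell to 78.9% of control (log2 fold change -0.34, adjusted p = 0.000175, edgeR). Erh, a DGCR8-binding protein that helps poor hairpins to be cut, fell to 82.5%, and Safb, which helps clustered hairpins to be cut, to 86.2%. The count called lower was 3 with library totals, where 1 was called higher, 3 with no filter, 2 without siNT replicate 1, siNT replicate 2 or siCnot1 replicate 1, and 6 without siCnot1 replicate 2.

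Of 5 export and dicing cofactors, 1 was called lower and 0 higher, beside 14.7% and 15% of all genes tested. Their median log2 fold change was 0.048. The gene called was Ran, the GTPase that drives export of the hairpin, at 84.0% of control (adjusted p = 0.0009, edgeR). Tarbp2, a double-stranded RNA-binding partner of DICER1, measured 77.6 and 69.1 normalized CPM in siNT and 77.7 and 74.1 in siCnot1, with overlapping libraries (log2 fold change 0.048, adjusted p = 0.677). Prkra, the other such partner, measured 7.62 and 7.85 normalized CPM in siNT and 9.05 and 8.31 in siCnot1 (0.17, adjusted p = 0.470). Neither DICER1 partner was called. Without siNT replicate 1 or siCnot1 replicate 1, 0 genes of this list were called, with the length trend offset 2 were lower, and with library totals 1 was lower and 1 higher.

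Among the chaperones that open Argonaute for loading, 6 of 8 were called lower and 0 higher, with a median of -0.32. Hsp90aa1 measured 5348 and 5346 normalized CPM in siNT and 3930 and 3928 in siCnot1, a fall to 73.5% of control (adjusted p = 3.85e-07, edgeR). Hsp90ab1 fell to 74.5%, the HSP70 gene Hspa8 to 74.8% and Stip1, which links HSP70 with HSP90, to 79.3%. These 4 were named for the smallest adjusted p in the list. The count called lower was 5 or 6 in every alternative fitted to all the libraries.

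Of 15 RISC cofactors and Argonaute turnover genes, 8 were called lower and 3 higher, with a median of -0.18. Tsn, the translin subunit of the nuclease that removes the passenger strand, fell to 75.4%, and the RNA-binding proteins Fmr1 and Fxr1 to 75.3% and 80.6%. Ajuba, a LIM-domain partner of Argonaute, rose 1.27-fold. The other 2 that rose, named here after their values were seen, were Ankrd52 (1.33-fold), a regulatory subunit of the phosphatase that resets Argonaute, and Zswim8 (1.32-fold), the ubiquitin ligase adaptor that marks Argonaute for decay in target-directed microRNA degradation. Ppp6c, the catalytic subunit of the phosphatase that holds Ankrd52, fell to 76.8% (adjusted p = 0.000497, edgeR) and was likewise named after its value was seen. The count called lower in this list was 5 with library totals and with no filter, 4 without siNT replicate 1, and 5 without siNT replicate 2, siCnot1 replicate 1 or siCnot1 replicate 2.

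Downstream of TNRC6, 6 of 15 effectors were called lower and 0 higher, with a median of -0.017. Dcp2, the decapping enzyme, measured 307 and 326 normalized CPM in siNT and 228 and 237 in siCnot1, a fall to 73.4% of control (adjusted p = 2.71e-06, edgeR). Eif4e2, a cap-binding repressor, fell to 81.7%, and the decapping cofactors Patl1 and Dcp1a to 84.2% and 84.3%. Pabpc1 and Pan3, whose products bind TNRC6 directly, did not pass the test (log2 fold changes -0.077 and 0.11, adjusted p = 0.3 and 0.36). The count of effectors called lower was 4 with upper-quartile scaling, 2 with library totals, where 1 was called higher, 1 with no filter, 1 without siNT replicate 1, siNT replicate 2 or siCnot1 replicate 1, and 2 without siCnot1 replicate 2.

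Over all genes tested, 14.7% were called lower and 15% higher. Among the 9 CCR4-NOT subunits other than Cnot1, 2 were called lower, Cnot6l at 79.8% and Cnot10 at 87.8% of control, and 0 higher. The count called lower was 0 with library totals and with no filter, 0 without siNT replicate 1, siNT replicate 2 or siCnot1 replicate 1, 1 without siCnot1 replicate 2, and 6 with the length trend offset. Cnot9, whose product holds tryptophan pockets for TNRC6, measured 183 and 176 normalized CPM in siNT and 159 and 169 in siCnot1, lower without overlap but not past the test (-0.13, adjusted p = 0.103).

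**Figure D5:**
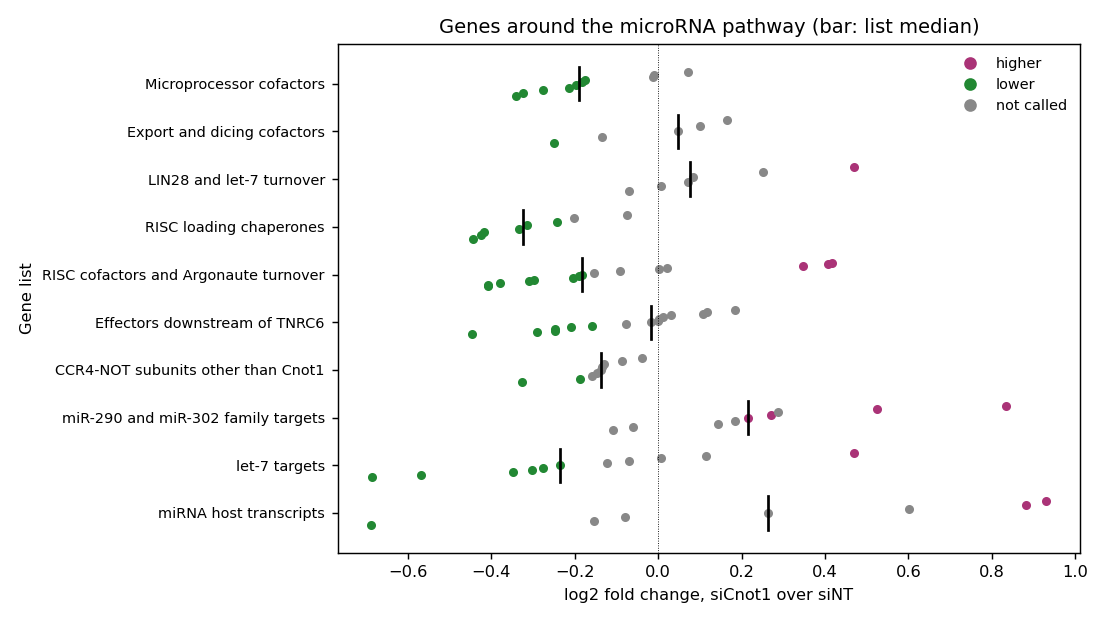
Log2 fold change of siCnot1 over siNT for each tested gene (point) of 10 lists around the microRNA pathway, coloured by the edgeR call, with the list median as a bar. Most chaperones (6 of 8) and Microprocessor cofactors (7 of 10) are called lower, and the medians of the targets of the miR-290 and miR-302 family and of let-7 lie at 0.21 and -0.24.

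Textbook targets of the abundant ESC microRNAs were read in the same way, beside 15% of all genes called higher and 14.7% lower. Of 10 genes listed for the miR-290 and miR-302 seed, 9 were tested, 4 were called higher and 0 lower, and the median log2 fold change was 0.21. Rbl2, a pocket protein that represses Dnmt3 genes, measured 15.7 and 14.5 normalized CPM in siNT and 28.1 and 25.8 in siCnot1, a rise of 1.78-fold (adjusted p = 3.65e-06, edgeR). Lats2, a Hippo kinase, rose 1.44-fold, the cell cycle inhibitor Cdkn1a 1.21-fold and Ei24 1.16-fold. The other 5 tested did not pass. The count called higher was 6 with library totals, 2 with no filter, 2 without siNT replicate 1 or siCnot1 replicate 2, and 1 without siNT replicate 2 or siCnot1 replicate 1.

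Of 11 let-7 targets, 6 were called lower and 1 higher, with a median of -0.24. Hmga2, a chromatin protein, measured 43.9 and 52.2 normalized CPM in siNT and 31.8 and 27.9 in siCnot1, 62.1% of control (adjusted p = 1.47e-05, edgeR). Mycn fell to 67.4% and Nras to 78.6%. Lin28b, which blocks let-7 maturation and is itself a let-7 target, rose 1.38-fold (24.8 and 30.5 against 37.6 and 39.0 normalized CPM, adjusted p = 0.00123). It was the 1 gene called among 6 in the LIN28 and let-7 turnover list, whose median was 0.077. That list had 3 genes called with library totals, and the call of Lin28b was lost with no filter and without siNT replicate 1 or siCnot1 replicate 2. Of the let-7 targets, 2 were called lower without siNT replicate 2. Dicer1 is on the let-7 list as a published target, and it is also a member here. It is 1 of the 6 called lower, and the median of the list is its own value.

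Of 15 host transcripts of microRNAs, 7 passed the filter, with a median of 0.26. Mir124a-1hg rose 1.91-fold and Mir9-3hg 1.84-fold, and Mirg, a long RNA of the imprinted Dlk1-Dio3 region that holds a microRNA cluster, fell to 62.1% of control (21.3 and 20.0 against 12.2 and 13.4 normalized CPM, adjusted p = 8.94e-05). Without siNT replicate 1, 0 of these were called higher, and 1 without each of the other libraries. A polyadenylated host transcript is not a measure of the microRNA it carries.

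Sites for the 3 seeds were searched in 1 annotated 3′ UTR of each member, that of the transcript with the longest coding sequence and then the longest 3′ UTR (GENCODE M21, joined by gene name only), as the 7 letters AGCACTT for miR-294, GCACTTT for miR-17 and CTACCTC for let-7 on the transcript strand. The last 6 letters of AGCACTT are the first 6 of GCACTTT, so 1 stretch can match both. Over 13746 tested genes with a 3′ UTR, 15.1% held an AGCACTT, 12.9% a GCACTTT and 9.27% a CTACCTC. Matches were found in Ago1, Ago2, Ago3 and each TNRC6 gene, and none in Ago4, Dicer1, Drosha or Dgcr8. The UTRs differ greatly in length, from 169 bases in Drosha to 12742 in Ago3, against a median of 939.5 bases over tested genes, and a long UTR holds more matches of any 7 letters.

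Ago2, the member that rose most among those called, held 3 let-7 matches and 1 miR-17 match in a 3′ UTR of 11064 bases. This UTR is longer than the whole exon length listed for Ago2 in the count table, 8031 bases, so not all of it can have been counted there. Let-7 match 3 and the miR-17 match begin 8919 and 10067 bases after the stop codon, past that whole length. A 3′ UTR counted on from the stop codon could not reach them. The listed length also includes coding bases, so whether it reaches let-7 matches 1 and 2 is not known. Ago3 held 3 miR-294 matches, 3 miR-17 matches and 1 let-7 match. These are the members with the most matches, and 6 of their 11 are shown: the let-7 matches of Ago2 and the miR-294 matches of Ago3. The miR-17 matches of both and the let-7 match of Ago3 are left out. Each line ends with the 7 matching letters in capitals after the 15 preceding bases. The let-7 matches of Ago2 begin 5177, 6861 and 8919 bases after the stop codon, and the miR-294 matches of Ago3 begin 3776, 7156 and 9952 bases after it.
Ago2 let-7 match 1: acagatgcataaaagCTACCTC
Ago2 let-7 match 2: caggtggcctctgtcCTACCTC
Ago2 let-7 match 3: ttttacaatgtggatCTACCTC
Ago3 miR-294 match 1: gtcacaggcggtgtgAGCACTT
Ago3 miR-294 match 2: caggactttaattgcAGCACTT
Ago3 miR-294 match 3: tgctcaaatgttaagAGCACTT

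Matches and fold changes of the members stand side by side as follows. Tnrc6b held 2 miR-294 matches and 1 miR-17 match at a log2 fold change of -0.028, Tnrc6c held 1 of each at 0.15, and Ago1 and Tnrc6a held 1 miR-17 match each at 0.0019 and 0.19. The 2 members called lower held none. A match is a stretch of letters and not a measured site, and its absence from these windows says nothing about regulation outside them.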

How the data were processed

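RNA-seq was measured in mouse ESCs, with 2 siNT and 2 siCnot1 libraries, grouped by the sample titles. The authors deposited raw counts per gene with gene positions and exon lengths, unnormalized and with replicates kept separate. The submitters' processing notes name fastp 0.19.4, HISAT2 2.2.1, DESeq2 1.40.2 and mm10, while the gene positions in the table are those of GRCm39, which are printed here for genes. The counting program and its strand setting are not given in the sources used here. GRCm38 sequences were joined by name only.

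Genes were filtered by filterByExpr (minimum count 10), scaled by TMM and tested with edgeR 4.0.16 (quasi-likelihood test, condition as the only term, Benjamini-Hochberg adjustment) in R 4.3.3. Standard errors were taken as the absolute log2 fold change over sqrt(F). TPM came from the deposited counts and exon lengths. Library totals of 32135824 to 32557440 counts set the precision, and floors of 3 counts cover counting error only. Alternatives were DESeq2 size factors, upper quartile, library totals, an offset for the length trend, no filter, 1 CPM in 2 libraries, DESeq2 1.42.0, limma-voom (limma 3.58.1), the replicate number as a block, leaving out each library, and CPM or shares of counts in place of TPM. The fits were tested on simulated data.

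The members and lists were chosen with earlier results of these data known. The genes named are the members, Cnot1, at most 4 genes per list with the smallest adjusted p under 0.05, list genes whose products bind TNRC6 or DICER1 directly (Cnot9, Pan3, Pabpc1, Tarbp2 and Prkra), and genes whose exons overlap a member's. Ankrd52, Zswim8, Ppp6c and uncalled targets in the closing section were named after their values were seen.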

Additional observations from a re-analysis of the deposited data

How the results depend on the processing

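Of the 4 called members, Ago2 kept its call in 12 of 13 alternatives, Dicer1 and Dgcr8 in 8 each and Tnrc6a in 7, always with the same direction. The number of members called higher was 1 with the length trend offset and 1 with no filter, and 0 to 1 with a library left out. The number called lower was 0 with library totals and 0 with no filter, and 0 to 1 with a library left out. When 1 library was left out the lone sample of its group was assumed to vary like the other group. Over all genes 743 to 1439 were then called higher and 871 to 1463 lower, in place of 2719 and 2668. The part of sample number in these lower counts was not tested. With no filter 1303 genes were called higher and 1450 lower, and library totals gave 3999 higher and 1563 lower. At 1 CPM, 729 genes were higher and 186 lower at 2-fold, in place of 1121 and 326, and the reason was not tested.

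Members without a call changed sign as follows. Ago1 was -0.0033 with DESeq2 size factors and with DESeq2, -0.074 with the length trend offset and -0.0047 with no filter, and -0.054 to 0.047 with a library left out. Tnrc6b was 0.080 with library totals and -0.11 to 0.042 with a library left out, and Drosha was 0.035 with library totals. The LIN28 list median was -0.0078 with the length trend offset, and the host transcript median -0.087 with no filter. The causes were not tested. Library totals moved the median log2 fold change of all genes from 0.0084 to 0.12 and that of the members from -0.013 to 0.094.

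Both groups carry replicate numbers 1 and 2, but same-numbered libraries did not deviate together over all genes (correlation of deviations -0.0057). A pairing that touches only some genes was not tested by this value. With the replicate block 2 members were called higher and 2 lower, as without it, Ago2 had a log2 fold change of 0.49 and Dgcr8 of -0.27, and 2524 genes were called higher and 2431 lower. The lists' counts were the same with the block except that 4 rather than 6 effectors downstream of TNRC6 were called lower. Other settings moved the lists' counts further, as given beside each list. Shares of counts in place of TPM moved 14 of 20 family shares beyond the SD between libraries, and CPM in place of TPM moved 8 of 20 places in the order. Depth limits Ago4 most, at 32 to 72 counts per library.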

Other observations

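Over all 13746 tested genes with a 3′ UTR, fold changes differed little with the number of seed matches. For the miR-294 letters AGCACTT, the median log2 fold change was 0.018 with no match (11668 genes), 0.036 with 1 (1704 genes) and 0.0054 with 2 or more (374 genes). For miR-17 the medians were 0.018, 0.028 and 0.047, and for let-7 they were 0.017, 0.040 and 0.013, in the same order. Median UTR length rose with the number of miR-294 matches, from 778 through 2126 to 3759 bases. Genes in each group share libraries and differ in UTR length, so these are descriptions with no test.

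Of the listed targets, Rbl2 and Ei24 held 1 AGCACTT each and Lats2 and Cdkn1a 2 each. These 4 were called higher. Of those not called, Casp2, Irf2 and Arid4b held 1 each and Bmpr2 none, as did Dkk1, which was below the filter. Tgfbr2, also not called, held 3, at 2.12 and 2.62 normalized CPM in siNT and 2.39 and 2.00 in siCnot1. Among let-7 targets, Hmga2 and Lin28b held 4 CTACCTC each and moved in opposite directions, to 62.1% and 138% of control, and Mycn and Dicer1 held none in the UTR searched. Tgfbr2, Casp2, Irf2, Arid4b, Bmpr2 and Dkk1 were named after their values were seen.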
